A study of Mus musculus with 60 samples.

Results

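Surfactant and alveolar type 2 cell genes were described in mice given benzo(ghi)perylene (BghiP), a polycyclic aromatic hydrocarbon. The 6 genes were Sftpa1, Sftpb, Sftpc, Sftpd, Napsa and Lamp3, of 20018 genes that could be named on the array. They were taken as every probe whose RefSeq accession maps to 1 of these symbols, which gave 8 of 55681 probes. Sftpb and Sftpd each had a pair of probes. The probe with the higher Cy5 signal over the lung arrays stands for the gene below, and the other is called its second probe.

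Male Muta Mouse, a transgenic strain used in mutation tests and aged about 10 weeks, received BghiP in olive oil by gavage every day for 28 days. The doses were 6.25 (D1), 12.5 (D2) and 25 (D3) mg/kg-bw/day, and the vehicle group (D0) received olive oil alone. Lung, liver and forestomach were frozen 72 h after the final dose, and RNA came from random slices of each organ, so the share of each cell type in a sample was not controlled. Each of the 12 groups of tissue and dose held 5 mice, and the same 20 mice gave all 3 tissues. Tissue RNA carried Cy5 and was hybridized against the same Cy3-labelled reference RNA, a mix from 11 mouse cell lines, on 60 arrays with no dye swap. A level is given as the log2 ratio of Cy5 to Cy3 after loess within the array, and a change is a difference of such levels.

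Pulmonary surfactant is a film of lipid and protein that lowers surface tension in the alveoli. It is made by alveolar type 2 cells, stored in their lamellar bodies and secreted into the airspace. Sftpb and Sftpc encode the small hydrophobic proteins of the film. Sftpa1 and Sftpd encode the collectins, which bind microbes and regulate surfactant turnover. Napsa is an aspartic protease that takes part in processing the proprotein of Sftpb, and Lamp3 is a glycoprotein of the lamellar body membrane that is also known from mature dendritic cells. Transcription of surfactant genes in the lung depends on the homeodomain factor NKX2-1.

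In the results below, Sftpb and Sftpa1 had little signal outside lung apart from 1 forestomach array, and Lamp3 was measured in all 3 tissues. The promoters of these members, those with an entry in the RefSeq table (GRCm38.p6), are shown. There was no entry for Sftpc, Sftpd and Napsa, so no link between the letters and the level in a tissue is drawn. Each run is the 250 bases before the annotated start, 5′ to 3′ on the strand of the gene, at chr6:72304360-72304609 (plus strand) for Sftpb, chr14:41131538-41131787 (plus strand) for Sftpa1 and chr16:19706366-19706615 (minus strand) for Lamp3. Capitals mark the letters CTCAAG, a core of NKX2-1 sites, searched on both strands.
Sftpb: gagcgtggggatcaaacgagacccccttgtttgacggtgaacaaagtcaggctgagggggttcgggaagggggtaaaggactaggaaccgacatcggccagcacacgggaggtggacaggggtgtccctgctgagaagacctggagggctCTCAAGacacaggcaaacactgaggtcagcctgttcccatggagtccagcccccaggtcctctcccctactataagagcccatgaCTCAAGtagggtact
Sftpa1: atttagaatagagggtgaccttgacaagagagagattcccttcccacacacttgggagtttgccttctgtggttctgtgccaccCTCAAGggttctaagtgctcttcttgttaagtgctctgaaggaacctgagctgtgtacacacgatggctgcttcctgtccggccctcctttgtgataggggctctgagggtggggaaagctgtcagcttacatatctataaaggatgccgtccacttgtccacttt
Lamp3: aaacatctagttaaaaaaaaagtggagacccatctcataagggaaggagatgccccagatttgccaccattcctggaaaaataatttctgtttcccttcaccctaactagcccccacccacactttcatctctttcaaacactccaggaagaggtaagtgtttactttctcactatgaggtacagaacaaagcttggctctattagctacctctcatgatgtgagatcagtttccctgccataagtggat
CTCAAG began 100 and 15 bases before the start of Sftpb and 166 bases before that of Sftpa1, and it was not found in the Lamp3 window. It is held by 13.3% of the 32851 promoter windows of this length. The forkhead core TGTTTA, held by 12% of windows, was found only in the Lamp3 window, 92 bases before the start. The letters TATAAA, held by 12.4%, were found only in that of Sftpa1, 30 bases before the start. These are matches of letters, and binding was not measured.

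Over the series, the share of probes well above background in Cy5 ran from 34.9% to 58.6% on lung arrays, from 36.3% to 48.3% on liver arrays and from 21.3% to 53.3% on forestomach arrays. Lung and forestomach shared 5 slides with 1 array of each dose and tissue on every slide, and liver lay on 3 other slides. Dose followed the column of the slide, so dose and position on the slide cannot be told apart. The lung array of D0 mouse 1 stood apart. Its mean log2 ratio over 5 skeletal muscle genes was 5.43, against 0.42 or less on the other lung arrays, and its mean over 5 squamous epithelium genes was 2.84, against 0.25 or less. The forestomach array of D0 mouse 2 also stood apart, as given below. The members' changes at D3 in lung and forestomach are given with and without these arrays. The correlations between genes in lung include D0 mouse 1.

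All 8 probes were well above background in Cy5 on 20 of 20 lung arrays. In lung, no member probe was called at D1, D2 or D3 (limma, with both an adjusted p not above 0.05 and a minimum of 1.5-fold required), and none had an unadjusted p under 0.05 at any dose. The share of all 31022 tested probes that was called was also 0% at each dose. At D3, 1492 probes (4.81%) had an unadjusted p under 0.05. The largest member differences belonged to Sftpb, for which both probes had a higher mean at each higher dose. The 3 dose comparisons share the D0 mice.

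Sftpb, which encodes surfactant protein B, had log2 ratios of 6.37, 6.67, 5.95, 6.82 and 7.33 in the D0 mice (1 to 5) and of 6.92, 6.55, 6.31, 7.16 and 7.26 in the D1 mice (6 to 10). The D2 mice (11 to 15) had 6.80, 7.02, 6.65, 7.28 and 7.11, and the D3 mice (16 to 20) had 6.85, 6.96, 6.65, 7.47 and 7.48. The groups overlapped, since the highest D0 mouse lay above 3 of the 5 D3 mice. Group means were 6.63 ± 0.51 (SD, n = 5), 6.84 ± 0.40, 6.97 ± 0.25 and 7.08 ± 0.38 from D0 to D3. The change at D3 was 0.45 with an SE of 0.23, a fold of 1.37 (limma, adjusted p = 1.0). The second probe gave means of 3.53 ± 0.54, 3.79 ± 0.34, 3.87 ± 0.33 and 3.94 ± 0.34, and a change of 0.41 with an SE of 0.23 at D3. With the scanner software's own processed signals in place of loess ratios, the changes were 0.19 for Sftpb and 0.20 for the second probe. Without D0 mouse 3, the lowest of its group, the changes were 0.28 and 0.22, and over the mice left out one at a time they ran up to 0.63 and 0.58.

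The slides differed more than the doses for this gene. Slide means of Sftpb ran from 6.39 on slide 2 to 7.30 on slide 5, and slide took 68.7% of its variance over the 20 lung arrays against 18.3% for dose. Within a slide, where 1 mouse of each dose was hybridized, D3 minus D0 for Sftpb was 0.47, 0.70, 0.64, 0.29 and 0.15 on slides 1 to 5. D3 was thus above D0 on 5 of 5 slides, and the second probe also gave positive differences on 5 of 5, from 0.14 to 0.69. With slide as a fixed block, the change of Sftpb at D3 kept its size, its SE fell to 0.11, and the adjusted p was 0.064. For the second probe the SE was 0.08 and the adjusted p was 0.035, with a fold of 1.33 that is under the 1.5-fold needed for a call.

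**Figure D1:**
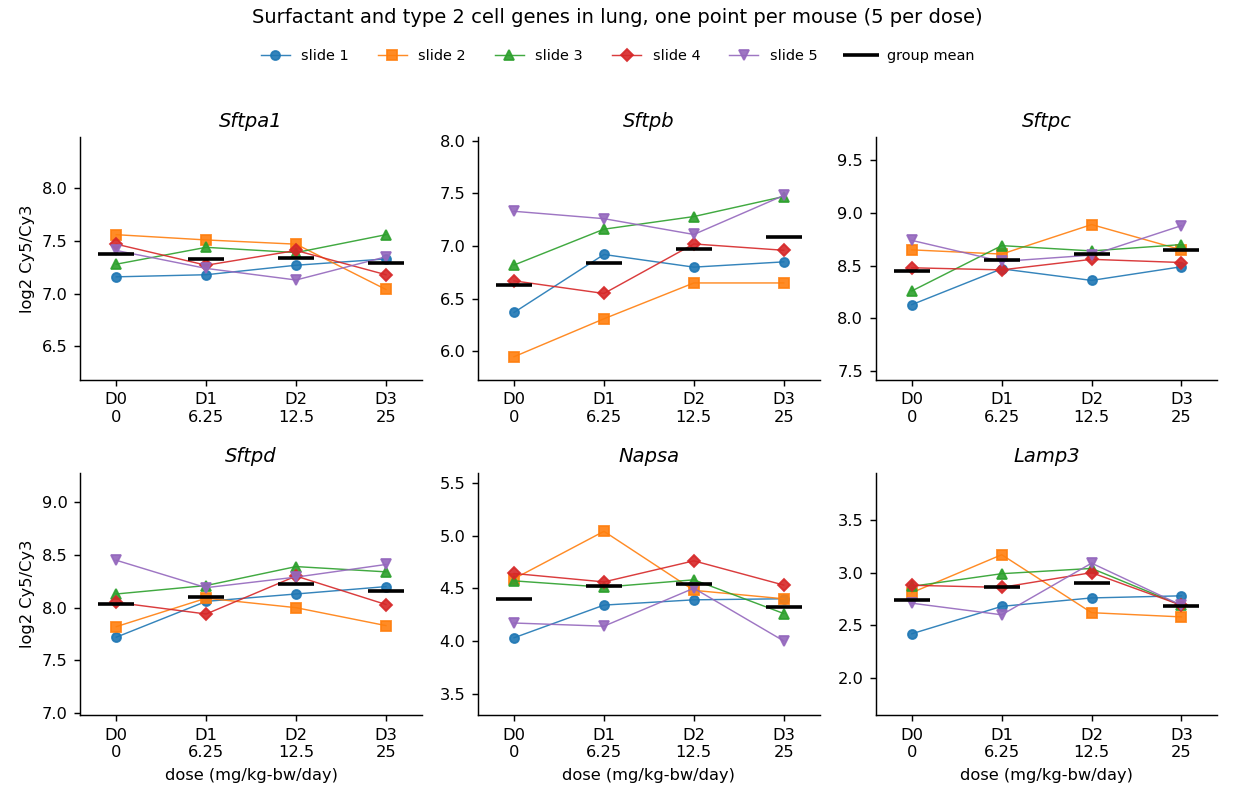
Log2 Cy5/Cy3 (vertical axis, with the same span in each panel) of the 6 genes in lung by dose in mg/kg-bw/day, 1 point per mouse, with the 4 mice of a slide joined by a thin line and group means as black bars. Sftpb lines run from low on slide 2 to high on slide 5, and each ends above its D0 point.

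Counted over the members with slide as a block, 1 of 8 probes had an adjusted p of 0.05 or less at D3, against 0.567% of all tested probes, and 0 of 8 were called with the minimum change, against 0.0677%. At an unadjusted p under 0.05 there were 4 of 8 member probes (both of Sftpb, Sftpc and the second of Sftpd), against 15.6% of all probes. On the slope on dose, 0 of 8 probes were called without the block, where the background was 0%, and 0 of 8 with it, where it was 0.306%. The slope of Sftpb amounted to 0.43 over the full dose range of 25 mg/kg-bw/day, with an SE of 0.22, or of 0.10 with the slide block (adjusted p = 0.081). With D0 mouse 1 also left out, the slope with the block was 0.0156 per mg/kg-bw/day (limma, adjusted p = 0.14). Leaving out D0 mouse 1 as well as fitting the slide block gave 0.41 for Sftpb at D3 (adjusted p = 0.13) and 0.38 for its second probe (adjusted p = 0.078), so that no member then passed an adjusted p of 0.05, and 2 of 8 member probes, both of Sftpb, had an unadjusted p under 0.05. In that fit 0.11% of all tested probes passed the adjusted p and 14.9% the unadjusted p. In bulk lung, more type 2 cells and more transcript per cell cannot be told apart.

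Sftpc encodes surfactant protein C, the member most restricted to type 2 cells. Its log2 ratios were 8.13, 8.48, 8.65, 8.26 and 8.74 in D0 mice, 8.47, 8.46, 8.61, 8.69 and 8.54 in D1 mice, 8.36, 8.56, 8.89, 8.64 and 8.60 in D2 mice, and 8.49, 8.53, 8.65, 8.70 and 8.88 in D3 mice. The groups overlapped, and 4 of the 5 D3 mice lay inside the D0 range. The change at D3 was 0.20 with an SE of 0.12 (adjusted p = 1.0), and with the slide block the SE was 0.09 (adjusted p = 0.29). Without D0 mouse 1, the lowest of the group, the change was 0.11. Left out in the same way, without the slide block, that mouse moved the change of Sftpb to 0.39 and that of its second probe to 0.36.

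The collectins showed small differences between doses. Sftpa1 group means were 7.37 ± 0.16, 7.33 ± 0.14, 7.33 ± 0.14 and 7.29 ± 0.19 from D0 to D3 (SD, n = 5), with all 20 mice between 7.04 and 7.56, and its change at D3 was -0.08 with an SE of 0.10. Sftpd had means of 8.03 ± 0.29, 8.10 ± 0.11, 8.22 ± 0.15 and 8.16 ± 0.24, and its change at D3 was 0.13 with an SE of 0.13. The second Sftpd probe gave 0.24 with an SE of 0.29. Without D0 mouse 1 the changes at D3 were -0.14 for Sftpa1, 0.05 for Sftpd and 0.09 for its second probe. Slide took 86.6% of the variance of that probe, and its slide means ran from 6.52 to 7.52. Neither collectin was called at any dose.

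Napsa and Lamp3, the protease and the lamellar body protein, had their highest group means at D2 and their lowest at D3. Napsa had means of 4.40 ± 0.28, 4.52 ± 0.33, 4.54 ± 0.14 and 4.32 ± 0.20, and Lamp3 of 2.74 ± 0.19, 2.86 ± 0.23, 2.90 ± 0.20 and 2.69 ± 0.07 (SD, n = 5). The changes at D3 were -0.08 with an SE of 0.15 for Napsa and -0.05 with an SE of 0.12 for Lamp3, both smaller than the spread between D0 mice. Without D0 mouse 1 they were -0.17 and -0.13. D3 lay above D0 on 1 of 5 slides for each gene.

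**Figure D2:**
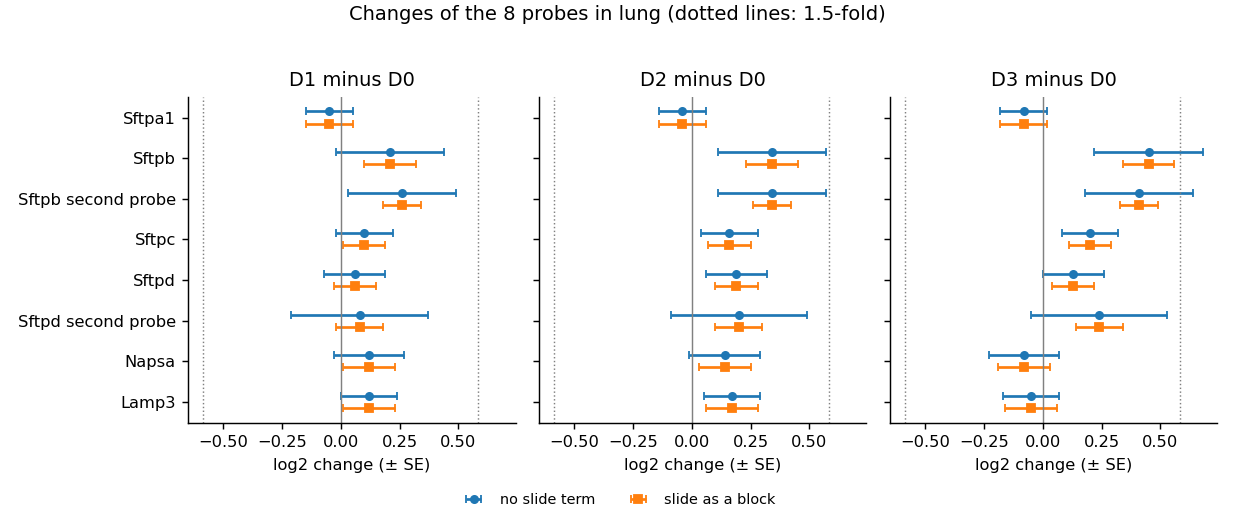
Log2 change from D0 in lung (horizontal axis) of the 8 probes at D1, D2 and D3, with bars for ± 1 SE, without a slide term (circles) and with slide as a block (squares). The values are the same in both fits, the SE of the Sftpb and Sftpd probes is smaller with the block, and no point reaches the dotted line of 1.5-fold.

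The members varied together to different degrees from mouse to mouse. Over the 20 lung arrays, with the slide means subtracted, Napsa and Lamp3 correlated at r = 0.95 (0.77 before subtraction), Sftpb and Sftpc at 0.75 (0.36), Sftpc and Sftpd at 0.66 (0.44), Sftpa1 and Sftpb at 0.00 (-0.04), and Sftpb and Napsa, the lowest of all pairs of members, at -0.20 (-0.44). Of 14474 other genes, those most like the mean of the members' standardized profiles after the slide means were subtracted were Fubp3 (r = 0.84, 0.52 before subtraction), Olfm1 (0.82, 0.78), Srsf1 (0.80, 0.65), Birc6 (0.80, 0.66) and H2-Eb1 (0.79, 0.77). The arrays share slides, labelling and normalization, so these values are given as a description.

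Of 30 other genes of surfactant metabolism and type 2 cells, all 30 were tested in lung and 0 were called at D3. Their median change was 0.15, against 0.16 over the 8 member probes and 0.01 over all tested probes, with 21 above and 9 below 0. Without D0 mouse 1 the median was 0.04 over the 30 genes and 0.07 over the member probes, and without D3 mouse 20 it was 0.03 over the 30 genes. Etv5 (0.46), a transcription factor that type 2 cells need to keep their identity, and Lgi3 (0.41) had the highest changes, and Fabp5 (-0.46), a fatty acid binding protein, and Hc (-0.43), complement component C5, the lowest. The lipid transporter Abca3 changed by 0.20 with an SE of 0.16, the phosphate transporter Slc34a2 by 0.16 with an SE of 0.26, the chemokine Cxcl15 by 0.28 with an SE of 0.23, Nkx2-1 by 0.24 with an SE of 0.30, and the protease Ctsh, which also acts on surfactant protein precursors, by -0.18 with an SE of 0.13. With slide as a block, 2 of the 30 had an adjusted p of 0.05 or less without reaching 1.5-fold, against 0.567% of all tested probes, Etv5 and the transcription factor Gata6, each with an adjusted p of 0.049. With D0 mouse 1 also left out, 0 of the 30 did, against 0.11% of all tested probes, and the lowest adjusted p was 0.094.

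Of 6 genes of surfactant clearance by macrophages, 0 were called and the median change was -0.05, from -0.13 for Csf2rb and Abcg1 to 0.09 for Csf2ra and 0.29 for the scavenger receptor Marco. Markers of the other lung cells were read beside the members, and 0 of them were called at D3 without the slide block. Median changes were 0.19 over 9 alveolar type 1 genes (from -0.06 for Cav1 and -0.02 for Akap5 to 0.27 for Hopx and 0.39 for Igfbp2), 0.13 over 6 club cell genes, 0.25 over 6 ciliated cell genes, 0.03 over 5 general epithelial genes, 0.19 over 7 endothelial genes, 0.02 over 5 macrophage genes and 0.09 over 5 dendritic cell genes. The 5 mesothelial genes had a median of 0.71, all above 0, and 2 of them were called with the slide block, Lrrn4 (1.24) and Upk3b (1.01), where 0.0677% of all tested probes were called. Without D0 mouse 1 the mesothelial median was 0.76, and 2 genes were called with the block, where 12 of all 31022 tested probes were called. The 5 skeletal muscle genes had a median of -0.99 and the 5 squamous genes of -0.54, and without D0 mouse 1 these were 0.17 and -0.12. That array also moved the alveolar type 1 median to 0.07 and the club cell median to 0.26 when left out. The median over the 2 hepatocyte genes that passed the filter in lung was 0.60. It was -0.04 without D3 mouse 20, where their mean level was 5.50 against 3.39 or less on the other lung arrays. Without that mouse the medians were also 0.01 over the endothelial genes, -0.01 over the club cell genes and 0.13 over the ciliated cell genes. The 2 glandular stomach genes that passed had a median of 0.17. The part of a shift in cell make-up in the Sftpb differences was not tested.

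Between tissues, all 8 probes were called higher in D0 lung than in D0 liver, against 25.4% of the 33255 probes tested, and all 8 were called higher than in D0 forestomach, against 18.8%. The members were chosen as lung genes, and both Sftpb probes and Sftpc failed the filter in liver, as did Sftpa1, the second Sftpb probe and Napsa in forestomach, so these were tested only because they passed it in another tissue, lung included. Nothing is read from the contrast of these counts with the shares. Log2 ratios of Sftpa1, Sftpb, Sftpc and Sftpd averaged 7.37, 6.63, 8.45 and 8.03 in D0 lung and 0.32, -0.07, 0.21 and 1.77 in D0 liver. Sftpb was well above background on 0 of the 5 D0 liver arrays, and Sftpa1 and Sftpc on 1 each. Sftpd was well above background on 20 of 20 liver arrays, with log2 ratios between 1.36 and 2.88, while its second probe, well above background on 18 of 20, gave 0.04 to 0.98. For the first Sftpd probe the lung minus liver difference was 6.26 with an SE of 0.83 (adjusted p = 3.5e-09). Napsa and Lamp3 were below the reference in liver, at -2.07 and -1.39, and differed from lung by 6.47 (adjusted p = 9.3e-21) and 4.13 (adjusted p = 9e-27). Napsa was well above background on 17 of 20 liver arrays and Lamp3 on 20 of 20.

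**Figure D3:**
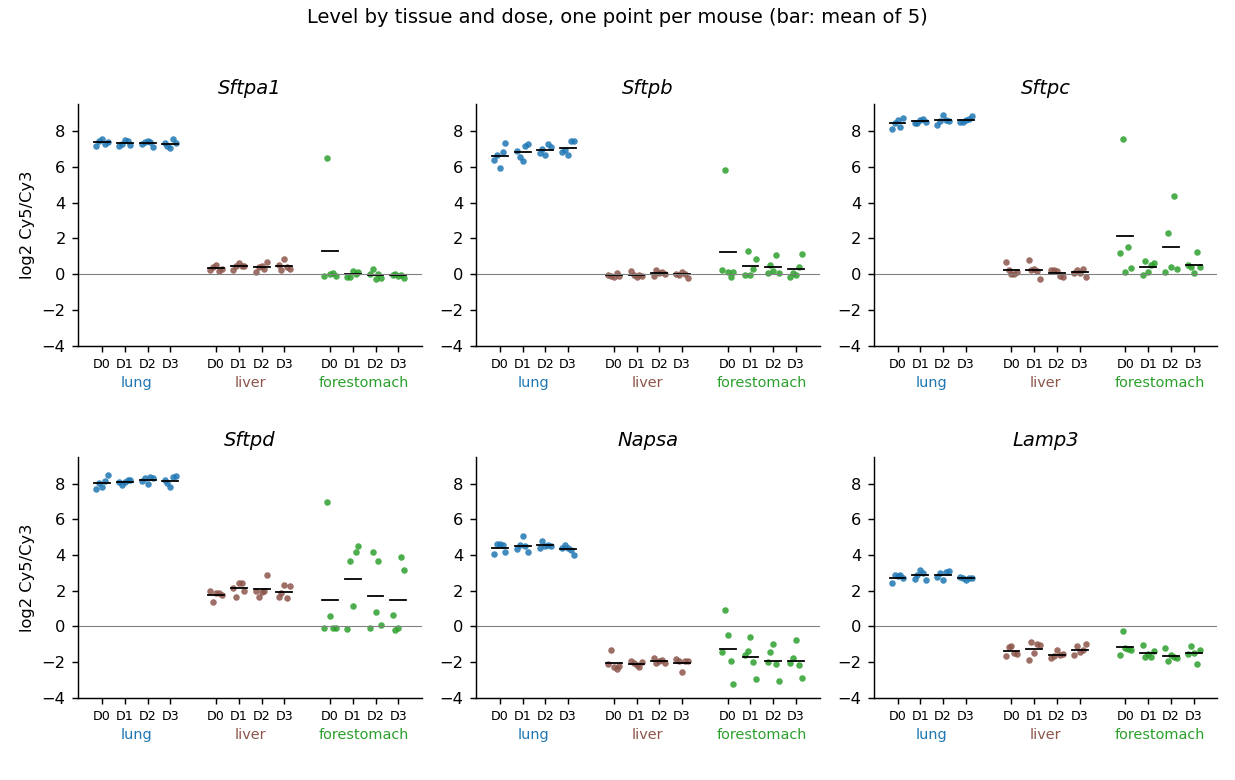
Log2 Cy5/Cy3 of the 6 genes in the 12 groups, 1 point per mouse and a bar for the mean of 5. Lung lies above the other tissues for all 6 genes, Sftpd lies between 1.36 and 2.88 in the liver samples, and 1 forestomach sample of D0 reaches 6.48 for Sftpa1 and 7.57 for Sftpc.

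The Cy3 signal of the surfactant probes was not the same on lung and liver arrays, and this enters their log2 ratios. For Sftpc the median Cy3 signal was 3580 on lung arrays, 39.8 on liver arrays and 48.5 on forestomach arrays, and Cy3 was well above background on 20, 1 and 2 of 20 arrays, although the reference RNA was the same. The corresponding Cy5 medians were 465000, 84.5 and 97.8, so that Cy3 in lung came to 0.782% of Cy5. Sftpa1 showed the same pattern, with Cy3 medians of 1050, 37.0 and 49.0, as did Sftpb (905, 37.0 and 42.0) and Sftpd (692, 45.5 and 55.5). Over the lung slides, the Sftpc slide mean in Cy3 was lowest, at 1400, on slide 5, where Cy5 was highest, at 519000. That of Sftpb was lowest, at 789, on slide 2, where its Cy5 was also lowest, at 18200. For Napsa and Lamp3, Cy3 was highest on slide 3, at 1120 and 13200. Napsa, with Cy3 medians of 659 in liver and 519 in forestomach and lung arrays between 418 and 1150, and Lamp3, with 6560, 6720 and 6920, had a reference signal in every tissue. The source of the Cy3 signal was not tested.

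**Figure D4:**
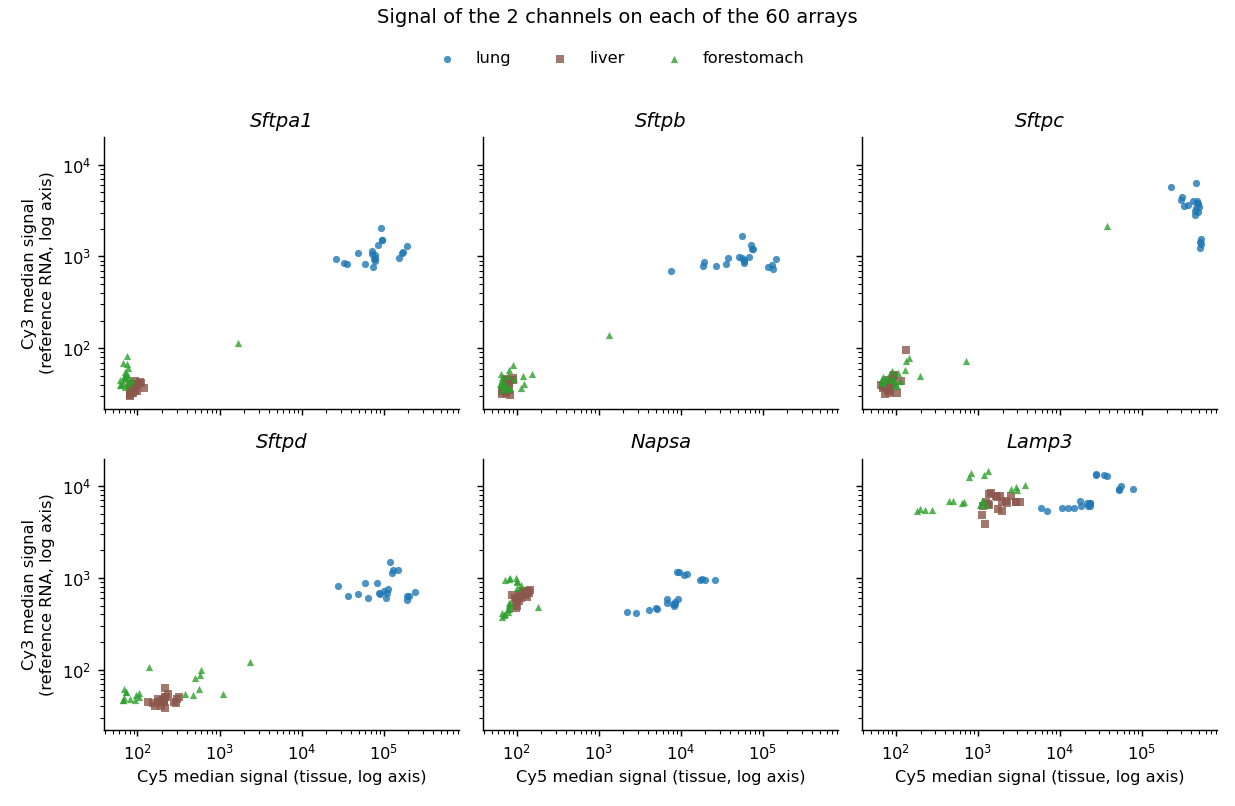
Median Cy3 signal of the reference RNA against median Cy5 signal of the tissue RNA, both on log axes, on each of the 60 arrays. For Sftpa1, Sftpb, Sftpc and Sftpd the lung arrays lie high in both channels and the other arrays lower, except that the forestomach array of D0 mouse 2 lies between them in Cy5 (Sftpc at 38000) and, for Sftpc in Cy3 (2120), within the range of the lung arrays, and for Napsa and Lamp3 Cy3 is of similar size in the 3 tissues.

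From Cy5 alone, normalized between arrays, Sftpb was at least 839-fold higher in D0 lung than in D0 liver, and its second probe at least 103-fold, taking the dim array at the lowest signal that was well above background. The same bound was 1670-fold for Sftpa1 and 10200-fold for Sftpc, with 1 of 5 liver arrays measured in each case. Measured on all 5 liver arrays, Sftpd was 731-fold and Lamp3 16.4-fold higher in lung. The second Sftpd probe, measured on 3 of 5 liver arrays and with the lowest well-measured signal standing in where it was higher, gave 179-fold. Within lung, Cy5 signals quantile normalized between the 20 arrays were used as an alternative chosen after seeing the data. They gave changes at D3 of 0.42 for Sftpb and 0.50 for its second probe. Of the member probes 0 of 8 were called, and of all 31022 tested probes 1 was. With the slide block on these signals, the adjusted p was 0.082 for Sftpb and 0.087 for its second probe, so that the second probe no longer passed 0.05. In that fit 63 of the 31022 probes passed it. Sftpc gave -0.02 there, but its probe had the highest signal of the array, at rank 1, so that quantile normalization leaves it little room to vary.

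No dose comparison in the other tissues called a member. In liver, 5 of 8 probes were tested (Sftpa1, both of Sftpd, Napsa and Lamp3), 0 were called at any dose, and the background was 0% at each. Changes at D3 in liver were 0.16 with an SE of 0.20 for Sftpd, 0.03 with an SE of 0.16 for Napsa and 0.10 with an SE of 0.17 for Lamp3. In forestomach, 5 of 8 were tested (Sftpb, Sftpc, both of Sftpd and Lamp3), 0 were called, and the background was again 0% at each dose. Changes at D3 in forestomach were -0.97 for Sftpb, -1.63 for Sftpc, 0.01 for Sftpd and -0.22 for its second probe, and without D0 mouse 2 they were 0.19, -0.27, 1.38 and 0.58, each with an adjusted p of 1. The change at D3 in lung minus that in liver was -0.03 with an SE of 1.18 for Sftpd, -0.11 with an SE of 0.56 for Napsa and -0.15 with an SE of 0.26 for Lamp3, and 0% of all probes were called in this test or in that against forestomach. These SEs come from the 60-array fit, in which the spread of the forestomach arrays also counts.

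The forestomach array of D0 mouse 2 had log2 ratios of 6.48 for Sftpa1, 5.85 for Sftpb, 7.57 for Sftpc and 6.98 for Sftpd. The other 4 D0 mice lay between -0.10 and 0.04, between -0.19 and 0.24, between 0.10 and 1.5, and between -0.09 and 0.61 for these genes. Its Cy5 signal for Sftpc was 38000, compared with 365000 on the lung array of the same mouse, and its Cy3 signal for that probe was 2120, or 5.59% of Cy5. Some other genes of the lung were also highest there, and those named next were chosen after their values were seen. Ager, a marker of alveolar type 1 cells, stood at 3.26 against 0.04 or less on the other 19 forestomach arrays, Bpifa1 of the airway epithelium at 4.55 against 0.25 or less, Cxcl15 at 2.91 against 0.30 or less and Nkx2-1 at 0.66 against 0.11 or less. Of the 30 other type 2 cell genes, 14 had their highest forestomach value on this array. So did 5 of 9 alveolar type 1, 3 of 6 club cell and 4 of 6 ciliated cell genes. The same held for 3 of 7 endothelial, 2 of 6 clearance, 2 of 5 macrophage and 1 of 6 dendritic cell genes. It held for 1 of 5 general epithelial and 0 of 5 mesothelial genes. The share was 6.76% of all probes tested in forestomach, but the list counts also include genes that were not tested there. Of the 30 type 2 cell genes, 1 stood at least 2 log2 units above the other 19 arrays, and 0 of 7 endothelial genes did. Lung and forestomach of this mouse lay on the same slide, and the source of the signal was not tested.

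Without D0 mouse 2 in any tissue, 0 of 4 D0 forestomach arrays were well above background for Sftpa1, Sftpb or Napsa. All 8 probes were called higher in lung than in forestomach with and without this mouse. The members were chosen as lung genes, and Sftpa1, the second Sftpb probe and Napsa failed the forestomach filter. Nothing is therefore read from these calls. On Cy5 alone, Sftpa1 was at least 1580-fold, Sftpb at least 787-fold and Napsa at least 61.3-fold higher in lung without this mouse, and the same calculation gave 635, 330 and 45.6 with it. The lung change at D3 minus that in forestomach was 1.83 with an SE of 0.92 for Sftpc with this mouse and 0.48 without it, with an adjusted p of 1 in both fits.

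In forestomach, Sftpd stood between 3.13 and 4.52 in 7 mice outside D0 (7, 9, 10, 12, 14, 19 and 20), and the second Sftpd probe gave 1.09 to 2.12 there. Sftpa1 lay between -0.22 and 0.31 in these mice and was not well above background. Sftpb was well above background in 4 of them, at 1.32 in mouse 7, 0.87 in mouse 10, 1.07 in mouse 14 and 1.13 in mouse 20, and otherwise only in D0 mouse 2. Sftpc stood at 4.35 in mouse 14 and 2.28 in mouse 12.

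Transcripts of the glandular stomach varied between the same arrays. Over the 6 listed glandular genes, the mean log2 ratio lay between 4.39 and 8.27 in the 7 mice, and that of Cblif, the gastric intrinsic factor, between 6.32 and 10.56. Other arrays had glandular transcripts with a lower Sftpd. Mice 3, 8 and 13, all on slide 2, had glandular means of 6.13, 6.46 and 7.01 with Sftpd at 0.61, 1.17 and 0.83, and mouse 16 had 4.38 with Sftpd at 0.66. Cy5 was dim on slide 2, where Lamp3 had 181, 199 and 225 in mice 3, 8 and 13. In mice 10 and 20 on slide 5 it had 2940 and 3000. Less Sftpd transcript and a dim array cannot be told apart in mice 3, 8 and 13. Mouse 15 had Gkn2 at 6.34 and Tff1 at 5.99, although Cblif was at 0.44 and Sftpd at 0.09. Mice 1, 4, 5, 6, 11, 17 and 18 had glandular means between 0.23 and 1.48 and Sftpd at -0.07 or less. The part of glandular tissue in the Sftpd values was not tested.

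**Figure D5:**
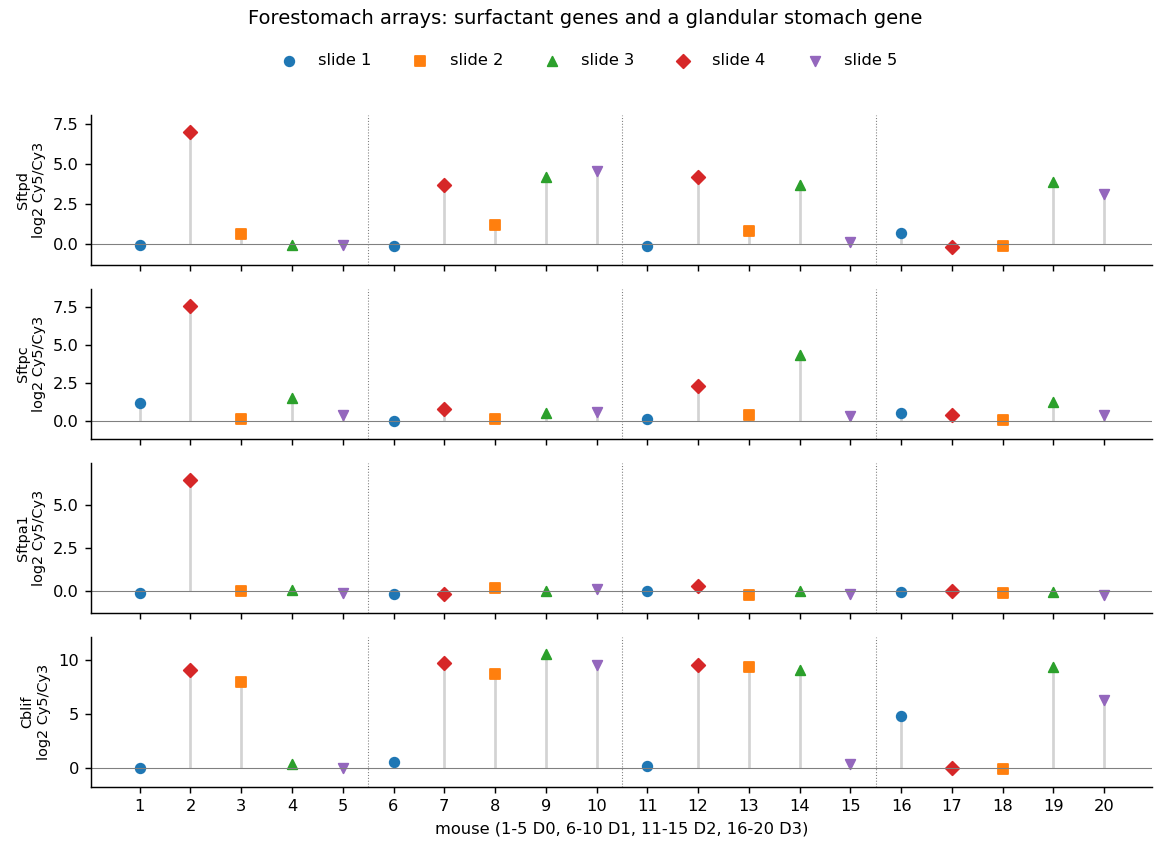
Log2 Cy5/Cy3 of Sftpd, Sftpc, Sftpa1 and the glandular stomach gene Cblif on the 20 forestomach arrays, by mouse, with the slide as colour and shape and dotted lines between the doses. D0 mouse 2 is high for all 4 genes, and the 7 other mice with Sftpd above 3 also have Cblif above 6.

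Lamp3 was well above background on 20 of 20 forestomach arrays, between -2.08 and -0.23, and its change at D3 there was -0.38 with an SE of 0.23, or -0.15 with an SE of 0.19 without D0 mouse 2. That mouse held the highest value, -0.23, and the other D0 mice lay between -1.60 and -1.19. Napsa was well above background on 2 of 20 forestomach arrays, those of D0 mouse 2 (0.93) and D2 mouse 15.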

How the data were processed

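Tissue RNA of 60 samples (20 mice, 3 tissues) was labelled with Cy5 and a common reference RNA with Cy3, and hybridized to Agilent arrays of 62976 spots. Per the file headers, the deposited scanner files hold spot intensity from Agilent Feature Extraction for both channels. The authors also deposited normalized log2 ratios of the same arrays, used here only as an alternative. All measured columns belonged to a sample (0 unused).

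From the intensity values, control spots (3671) and outlier spots (0.46%) were left out, median signals without background subtraction were normalized by loess within each array, and spots of a probe were averaged. A probe was tested in a tissue where Cy5 was well above background on at least 5 of 20 arrays. Tests were two-sided moderated tests of limma 3.58.1 in R 4.3.3 (package data.table, version 1.17.8), with Benjamini-Hochberg adjustment over all probes tested. Calls needed an adjusted p not above 0.05 together with a minimum of 1.5-fold, and on the slope the adjusted p alone. The code was tested on simulated data. The number of arrays limits the precision.

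The members and lists were chosen with earlier results of these data known. Named were all members, from the lists of other type 2 cell, clearance and alveolar type 1 genes the 2 highest and 2 lowest changes at D3 in lung, the 2 highest of the mesothelial list, 5 type 2 cell genes in any case, and the 5 genes most like the members. Gata6, Cblif, Gkn2, Tff1 and the lung genes named in forestomach were chosen after their values were seen. Mouse numbers name the same animal in each tissue per the labels, so numbers pair the samples. Deviations of a mouse from its group means correlated at 0.00 to 0.43 between lung and forestomach, at -0.20 to 0.20 between lung and liver, and at -0.19 to 0.15 between liver and forestomach. Lung and forestomach of a mouse lay on the same slide and liver on another, so a shared mouse and a shared slide cannot be told apart here. Alternatives were another background correction, the processed signals, the deposited log2 ratios, other filters, slide or mouse as a block, other variance models, shuffled residuals (100 shufflings), all arrays in 1 model and each mouse left out. Cy5 alone, within-slide values, the slide block without D0 mouse 1, and list medians without D0 mouse 1 or D3 mouse 20 were added after seeing the data.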

Additional observations from a re-analysis of the deposited data

Results flagged for a closer look

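Of 96 sets of 5 mice (a probe in a tissue and dose), 10 held a mouse whose distance from its nearest neighbour took over 0.71 of the range of the set, and chance gives about 1 in 20 sets. The forestomach array of D0 mouse 2 gave 6 of the 10, with log2 ratios of 6.48 for Sftpa1, 5.85 for Sftpb, 1.59 for the second Sftpb probe, 7.57 for Sftpc, 6.98 for Sftpd and 4.04 for the second Sftpd probe. Since they come from 1 array, these are not separate events. The other 4 were liver samples. Sftpd stood at 2.88 in D2 mouse 15, where the other mice of the group lay between 1.63 and 1.97. Napsa stood at -1.32 in D0 mouse 2, where the others lay between -2.39 and -2.13, and at -2.53 in D3 mouse 18, where the others lay between -1.95 and -1.83. Sftpb stood at 0.18 in D1 mouse 6, where the probe was not well above background on any liver array.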

How the results depend on the processing

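The counts of called members were the same in every alternative run: 0 in each dose comparison and on the slope in lung, 0 in liver and forestomach, 8 in each tissue comparison, and 0 for the difference between tissues in the change at D3. They also stayed at 0 and at 8 with each mouse left out. With mouse as a replicate block, 8 member probes were still called in lung against liver and 8 against forestomach, and the block changed no other call. Nothing is read from the calls of 8, since the members were chosen as lung genes and several failed the filter outside lung. No sign of a called difference turned. Among differences that were not called, Napsa at D3 in lung was 0.09 with processed signals and its slope 0.0026. Sftpc at D3 in lung was -0.02 from Cy5 alone, with or without the slide block, and its slope -0.00088. Napsa at D3 in liver was -0.01 with normexp and -0.03 with the slide block, and Sftpd at D3 in forestomach was -0.01 with normexp and -0.05 with the deposited ratios. For the change in lung minus that in liver, the second Sftpd probe gave -0.19 with processed signals and -0.10 from Cy5 alone, and Napsa gave 0.03 with processed signals. The Sftpd D3 change in lung minus forestomach was -0.71 with processed signals. The cause was not tested. With single mice left out, signs turned for Napsa (-0.05 to 0.21) and the second Sftpd probe (-0.04 to 0.19) at D3 in liver, and for Sftpb (-1.32 to 0.19), Sftpd (-0.60 to 1.38) and its second probe (-0.51 to 0.58) at D3 in forestomach. They also turned for Sftpd (-0.16 to 0.08), its second probe (-0.08 to 0.46) and Napsa (-0.24 to 0.01) in lung minus liver, and for Sftpd (-1.25 to 0.61) and its second probe (-0.35 to 0.84) in lung minus forestomach. Sftpb at D3 in lung ran from 0.28 to 0.63, and its second probe from 0.22 to 0.58. Surfactant probes other than Sftpd were mostly not well above background outside lung, which limits those changes to bounds.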
